A study of Mus musculus with 12 samples.

Results

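The 9 genes studied here encode the integrin chains Itgam, Itgal, Itgax, Itgb2 and Itga4, the selectin ligand Selplg, the hyaluronan receptor Cd44, and the immunoglobulin-type adhesion molecules Icam1 and Pecam1. They were chosen by name as genes of neutrophil recruitment and of shedding linked to neutrophil ageing, by a rule that uses no measured value. Earlier results of these data were known when the choice was made, so it was not blind to them. All 9 were found among the 48709 genes of the count table, and all 9 passed the filter on low counts that left 12488 genes for testing.

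Neutrophils leave the blood in steps. Selplg, known as PSGL-1, and Cd44 catch selectins on the vessel wall and let the cell roll, after which integrins made of an alpha and a beta chain bind Icam1 and related ligands and stop it. Itgal, Itgam and Itgax are alpha chains that pair with the shared beta chain Itgb2 to form LFA-1, Mac-1 (CD11b/CD18) and CD11c/CD18. Pecam1 takes part in the passage between endothelial cells. In the liver, neutrophils adhere in sinusoids, where Icam1 on the endothelium and the pairing of Cd44 with hyaluronan are both known to hold them.

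RNA was sequenced from neutrophils of C57BL/6N male mice aged 8 to 10 weeks. Control splenic neutrophils of untreated mice gave 3 libraries. Liver neutrophils gave 4 libraries at 24 hours and 5 libraries at 72 hours after a single intraperitoneal injection of carbon tetrachloride in corn oil, a toxin that kills hepatocytes. Cells of every group were enriched with Ly6G beads and sorted as Ly6G hi, Ly6C int, CD11b+ and CD45+, so the protein of Itgam was part of the gate. Both liver groups were set against the same 3 spleen libraries. Organ, tissue digestion and injury change together in those comparisons and cannot be told apart, and no vehicle-treated or uninjured liver library was analysed here. In sorted bulk samples, fewer cells of a type and less RNA per cell cannot be told apart either.

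Each library held between 1267089 and 3017403 counts on genes, so a gene at 1 CPM (a count scaled to a common library total) rests on 1 to 3 counts. Of the uniquely aligned reads, 2.71% to 3.18% fell on genes. The kit kept the strand of the RNA, the strand setting of the counting was not given in the sources used here, and the 20 most counted genes each share exon bases with a gene on the opposite strand. A gene's count therefore cannot be told apart from reads of the opposite strand of its exons, which limits what every level below stands for. Spleen replicate 3 stood apart from the other spleen libraries: 14 neutrophil markers without such an overlap summed to 2418 CPM there, against 11186 and 11356 CPM. Those markers summed to between 1131 and 2824 CPM in the 9 liver libraries, and at 24 hours to 2450 and 2824 CPM in replicates 1 and 2 against 1131 and 1264 CPM in replicates 3 and 4. The same pairs of 24-hour libraries divided on the second principal component, at 45.3 and 47.9 against 2.43 and -4.99. Among the 14 markers, Elane had no count in any library. The highest of them on average in the spleen were S100a9 (338 to 3961 CPM), Ngp (339 to 1891), Ltf (208 to 1708) and S100a8 (79.9 to 1369). Not every marker followed the sum. Csf3r had 462 to 568 CPM in the spleen libraries, 278 to 403 at 24 hours and 461 to 709 at 72 hours. Cxcr2 had 283 to 366, 159 to 490 and 312 to 499 CPM. The sum is therefore not a measure of neutrophil content. Ly6g, a marker of the sort, had 29 to 104 counts in the spleen libraries, 3 to 42 at 24 hours and 3 to 18 at 72 hours. Among 72-hour libraries, replicates 2 and 3 had 1.91% and 1.98% unaligned reads against 49.6% to 50.7% in every other library, and replicates 4 and 5 lay apart from replicates 1, 2 and 3 on the second principal component.

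The genes lie on 6 chromosomes of GRCm38. The alpha chain genes Itgal (chr7:127296260-127335138), Itgam (chr7:128062640-128118491) and Itgax (chr7:128129547-128150657) lie on the plus strand of chromosome 7. Itgb2 is at chr10:77530252-77565708 and Icam1 at chr9:21015985-21028817, both on the plus strand. Itga4 (chr2:79255426-79333123, plus strand) and Cd44 (chr2:102811141-102901665, minus strand) are on chromosome 2. Selplg (chr5:113818536-113832644) and Pecam1 (chr11:106654217-106750628) are on the minus strand. Exon bases are those of all annotated transcripts of a gene, joined. Of 5024 exon bases of Itgam, 3450 are shared on the same strand with Gm49368, which had 0 to 17 counts. Of 13978 exon bases of Itga4, 1124 lie opposite exons of Cerkl, and 511 of the 4360 exon bases of Icam1 lie opposite Gm47079, which is not a row of the count table. The other 6 genes share no exon base with another annotated gene.

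The start regions of Icam1 and Itgax are shown because these were the members that passed the test described below. RefSeq windows on GRCm38.p6, from 250 bases before to 50 after the transcript start, were found for 5 of the 9 genes (Itga4, Cd44, Itgam, Itgax and Icam1). The window of Icam1 is chr9:21015690-21015989 and that of Itgax is chr7:128129300-128129599, both on the plus strand and written 5′ to 3′, with motif matches in capitals:
Icam1: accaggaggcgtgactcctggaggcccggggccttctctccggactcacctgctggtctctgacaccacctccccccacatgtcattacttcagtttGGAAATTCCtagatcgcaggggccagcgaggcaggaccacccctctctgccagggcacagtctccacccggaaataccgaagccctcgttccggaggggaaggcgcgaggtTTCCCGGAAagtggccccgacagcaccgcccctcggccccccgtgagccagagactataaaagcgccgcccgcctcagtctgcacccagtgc
Itgax: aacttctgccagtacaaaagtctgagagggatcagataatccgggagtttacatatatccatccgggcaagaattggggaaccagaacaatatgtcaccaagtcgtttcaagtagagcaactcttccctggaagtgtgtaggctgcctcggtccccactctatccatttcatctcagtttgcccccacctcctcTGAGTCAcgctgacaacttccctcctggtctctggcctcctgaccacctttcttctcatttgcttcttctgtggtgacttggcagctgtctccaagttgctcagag

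In the Icam1 window the capitals mark GGAAATTCC, a sequence of the type bound by NF-κB, at -153 from the start. At -42 they mark TTCCCGGAA, which matches the STAT motif TTCNNNGAA. In the Itgax window they mark TGAGTCA, a match to the AP-1 motif TGANTCA, at -56. Both strands were searched. STAT matches were present in 8.3% of 32851 RefSeq promoter windows of that length, AP-1 matches in 7.81% and GGAAATTCC in 0.317%. The last was searched for after the Icam1 window had been read. The NF-κB consensus (4.51% of windows) and the PU.1 motif GAGGAA (28.3%) had no match in either window, and PU.1 matches were present in those of Itgam and Cd44. These matches describe letters and were not tested as sites.

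Per kilobase of exon, Itgb2 had the highest level in control splenic neutrophils at 73.3 ± 13.9 CPM per kb (SD, n = 3), followed by Selplg at 40.9 ± 8.81. Cd44 at 27.8 ± 3.87, Itgam at 25.7 ± 7.0 and Itgal at 18.0 ± 5.69 CPM per kb came next, and neighbours in that order lay within their SDs of each other. Itgax at 6.53 ± 4.28 and Itga4 at 5.35 ± 3.19 CPM per kb could not be ordered either. Icam1 at 0.969 ± 0.531 and Pecam1 at 0.341 ± 0.183 CPM per kb were lowest, with overlapping SDs. Over the 1574 exon bases of Itgam that Gm49368 does not share, its level came to 82.1 ± 22.3 CPM per kb, so the place of Itgam in the order depends on how reads on the shared bases were counted.

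In 24-hour neutrophils Selplg (50.9 ± 11.3 CPM per kb, SD, n = 4) and Itgb2 (46.9 ± 8.25) led with overlapping SDs. Icam1 stood behind Itgam (20.3 ± 4.79 CPM per kb) with 6.75 ± 1.35 CPM per kb, above Itga4 (3.20 ± 0.778) and Itgax (2.53 ± 1.22) by more than their SDs. In 72-hour neutrophils Itgb2 (56.7 ± 4.15 CPM per kb, SD, n = 5) and Selplg (49.9 ± 8.38) led again. There Itgax (9.88 ± 3.27), Icam1 (4.93 ± 3.33) and Itga4 (4.68 ± 0.934) had overlapping SDs between neighbours. Pecam1 was lowest in every group. Over the 1574 exon bases not shared with Gm49368, Itgam came to 64.9 ± 15.3 CPM per kb at 24 hours and 66.5 ± 16.2 at 72 hours. Those values were above Selplg and Itgb2, with overlapping SDs. Which gene led in the liver groups therefore also depends on how reads on the shared bases were counted.

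**Figure D1:**
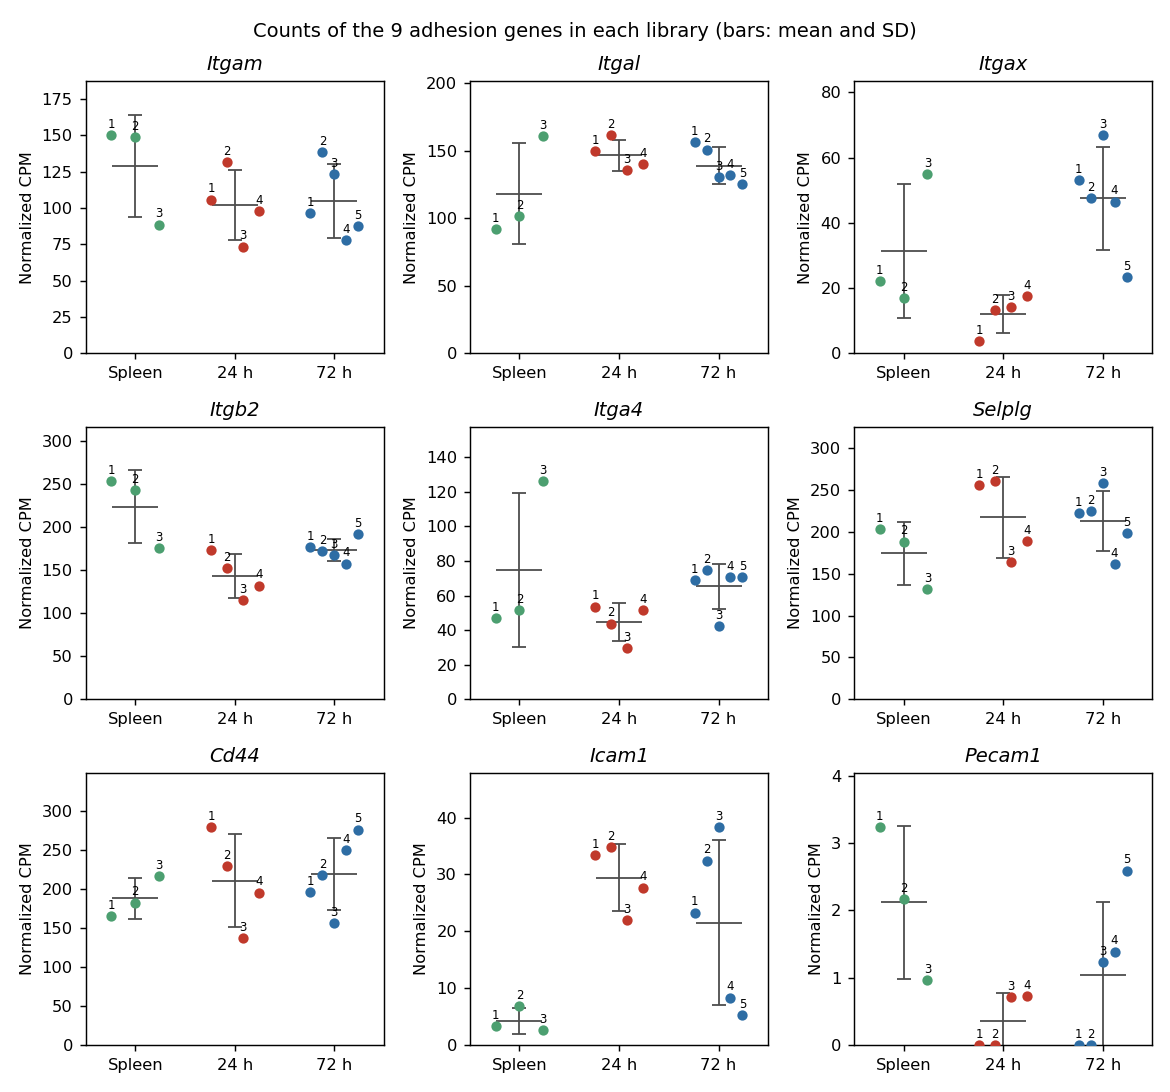
Normalized CPM (counts scaled by TMM library size, linear axes from 0) of each of the 9 genes in 3 spleen, 4 24-hour and 5 72-hour libraries; points are libraries with their replicate number, and bars give the mean and SD. Icam1 lay between 2.57 and 6.87 CPM in the spleen and between 21.9 and 34.8 CPM at 24 hours, and Itgax lay below all 72-hour libraries in every 24-hour library.

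The comparison of each liver group with the spleen sets liver neutrophils after injury against splenic neutrophils of untreated mice, and does not isolate recruitment. The comparison of the liver groups asks how liver neutrophils differ between 24 and 72 hours after the injection. Icam1 was higher in both liver groups than in the spleen, and Itgax was higher at 72 than at 24 hours. Those were the differences that passed the test, which was edgeR's quasi-likelihood test. A gene was called where the adjusted p was under 0.05 and the log2 fold change was 0.5 or more in either direction. In the 24-hour comparison 1 of 9 genes was called higher and 0 lower, where 5.35% of all genes tested were called higher and 4.4% lower. In the 72-hour comparison it was again 1 higher and 0 lower, where 2.63% and 2.71% of all genes were called. Between the liver groups 1 was higher and 0 lower at 72 hours, against 1.65% and 2.84% of all genes. At an unadjusted p under 0.05, 3 genes were lower at 24 hours (Itgax, Itgb2 and Itga4), where 14.8% of all genes tested were lower by that rule. In the other comparisons 0 were lower by it, against 8.35% and 9.11% of all genes. DESeq2 called Itgax and Itgb2 lower at 24 hours. The 2 groups had no overlap in CPM for 3 of 9 genes at 24 hours against the spleen. That held for 1226 genes higher and 1623 lower of all 12488 tested. At 72 hours against the spleen it was 0 of 9, with 699 higher and 796 lower of all genes. Between the liver groups it was 1 of 9, with 561 higher and 628 lower of all genes. A lack of overlap was thus common with so few libraries. The median log2 fold change of the 9 genes was -0.34, 0.22 and 0.057 in the 3 comparisons, and that of all genes tested was -0.23, -0.020 and 0.18.

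Icam1, the ligand of the Itgb2 integrins that leukocytes also make when activated, had 3.24, 6.87 and 2.57 normalized CPM in spleen replicates 1 to 3, from 7, 19 and 8 counts. At 24 hours it had 33.4, 34.8, 21.9 and 27.7 CPM, from 31 to 58 counts. At 72 hours it had 23.3, 32.4, 38.3, 8.33 and 5.18 CPM, from 43, 94, 124, 12 and 8 counts. All 24-hour libraries were above all spleen libraries, while the 72-hour libraries divided into replicates 1 to 3, at the 24-hour level, and replicates 4 and 5, near the spleen. The log2 fold change was 2.78 ± 0.57 (SE) at 24 hours (adjusted p = 0.00296) and 2.37 ± 0.55 at 72 hours (adjusted p = 0.0100), on small spleen counts. Between 72 and 24 hours it was -0.41 ± 0.43 (adjusted p = 0.623, 95% confidence interval -1.30 to 0.48).

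The 24-hour call of Icam1 held when any 1 of the 12 libraries was left out, with log2 fold changes of 2.5 to 3.33 and adjusted p up to 0.0242. It was 2.54 without 24-hour replicates 1 and 2 (adjusted p = 0.0294) and 3.02 without 24-hour replicates 3 and 4 (adjusted p = 0.0101). The 72-hour call depended on which libraries were used. It was lost without spleen replicate 1 (2.22, adjusted p = 0.0705), without 72-hour replicates 2 and 3 (1.55, adjusted p = 0.174) and with limma-voom, the test of the study (2.26, adjusted p = 0.0554). Without replicates 4 and 5 it was 2.88 (adjusted p = 5.8e-05). With replicates 4 and 5 alone, an alternative added after the values were seen, it was 0.66 against the spleen (adjusted p = 0.796) and -2.12 against 24 hours (adjusted p = 0.0354).

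Icam1 is also made by endothelium and hepatocytes, whose markers were counted beside it. The 8 endothelial markers without an opposite-strand overlap summed to 3.70 to 5.14 CPM in the spleen. At 24 hours they summed to 0.599 to 10.2 CPM and at 72 hours to 1.85 to 6.24. Cdh5, Kdr and Robo4 had no count in any library. Stab1, Stab2, Clec4g and Egfl7 were left out of that sum for such an overlap. Stab1 averaged 89.5 CPM in the spleen, 169.9 at 24 hours and 181 at 72 hours. Stab2 averaged 3.57, 7.42 and 7.02 CPM, and Clec4g 39.4, 34.9 and 39.97. Stab1, Stab2 and Clec4g were not called in any comparison. Egfl7 averaged 68.5, 28.7 and 28.1 CPM. It was called lower than in the spleen at 24 hours (-1.26, adjusted p = 0.0155) and 72 hours (-1.28, adjusted p = 0.0117). The 10 hepatocyte markers summed to 2.31 to 6.10 CPM in the spleen, 14.8 to 20.2 at 24 hours and, in 72-hour replicates 1 to 5, 7.58, 17.9, 28.1, 6.94 and 3.24. At 24 hours most of that sum was the 1 gene Apoa2, an apolipoprotein, with 12.7 to 19.5 CPM from 31, 32, 18 and 22 counts. Apoa2 was called higher at 24 hours than in the spleen (2.07, adjusted p = 0.00888). Alb, the albumin gene that defines hepatocytes, had 0, 0, 2 and 2 counts at 24 hours and 0, 13, 33, 0 and 1 at 72 hours, and Ttr and Cps1 had none in any library. Every 24-hour library had a higher sum than every spleen library, and at 72 hours the sum and Icam1 were highest in replicates 2 and 3.

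The 11 macrophage markers summed to 19.5 to 44.3, 21.1 to 37.5 and 13.0 to 24.9 CPM in the 3 groups, with Clec4f and C1qa at 0 throughout. Cd163, a scavenger receptor of macrophages, had 2, 6 and 2 counts in the spleen, 13, 16, 8 and 7 at 24 hours, and 0, 7, 4, 0 and 0 at 72 hours. Its CPM was higher in all 24-hour libraries than in any other library, with a log2 fold change of 2.47 against the spleen that was not called (adjusted p = 0.0746), and it was called lower at 72 than at 24 hours (-2.92, adjusted p = 0.0318). The other 3 macrophage markers tested were not called. Among them Csf1r, left out of the sum for an opposite-strand overlap, averaged 92.6 CPM in the spleen, 141 at 24 hours and 137 at 72 hours. Its CPM was higher in all 24-hour libraries than in any spleen library (log2 fold change 0.61, adjusted p = 0.122). The part of endothelial cells, hepatocytes and macrophages in the Icam1 result was not tested.

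Itgb2, the beta chain that Itgal, Itgam and Itgax share, had 253, 243 and 175 CPM in the spleen. It had 173, 152, 115 and 132 CPM at 24 hours. At 72 hours the values were 177, 172, 167, 158 and 192 CPM. All 24-hour libraries lay below all spleen libraries, though the highest of the former (173 CPM) was close to the lowest of the latter (175 CPM), and 72-hour libraries overlapped both. The log2 fold change was -0.64 ± 0.22 at 24 hours (adjusted p = 0.0680), -0.37 ± 0.21 at 72 hours (adjusted p = 0.400) and 0.27 ± 0.20 between them (adjusted p = 0.451). The 24-hour difference was called without spleen replicate 3 (-0.79, adjusted p = 0.0275), with DESeq2 (-0.63, adjusted p = 0.0310) and with the filterByExpr filter (-0.66, adjusted p = 0.0397).

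Itgam, the alpha chain of Mac-1 that also binds complement fragments and fibrinogen, had 150, 149 and 88.6 CPM in the spleen. The 24-hour values were 106, 132, 73.5 and 97.6 CPM, and the 72-hour values 96.4, 138, 124, 77.7 and 87.5 CPM. The groups overlapped, with spleen replicate 3 inside the liver range. Log2 fold changes were -0.34 ± 0.27 (95% confidence interval -0.90 to 0.23, adjusted p = 0.463) at 24 hours and -0.30 ± 0.26 (-0.83 to 0.24, adjusted p = 0.646) at 72 hours. Between the liver groups the difference was 0.039 ± 0.24, which turned to -0.046 under upper-quartile scaling.

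Itgal, the alpha chain of LFA-1, had 91.6, 102 and 161 CPM in the spleen. At 24 hours it had 149, 161, 136 and 140 CPM, and at 72 hours 156, 151, 130, 132 and 125 CPM. The liver libraries formed a narrow band above spleen replicates 1 and 2, and spleen replicate 3 lay inside that band. The log2 fold changes of 0.31 ± 0.24 and 0.23 ± 0.22 against the spleen did not pass (adjusted p = 0.431 and 0.696), and the difference between the liver groups was -0.076 ± 0.21 (95% confidence interval -0.50 to 0.35).

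A ratio of counts within a library compares the alpha chains without any scaling. The log2 ratio of Itgal to Itgam was -0.71, -0.55 and 0.86 in the spleen libraries. It was 0.50, 0.29, 0.88 and 0.52 at 24 hours. It was 0.70, 0.12, 0.077, 0.76 and 0.51 at 72 hours. Itgal thus had more counts than Itgam in all 9 liver libraries and in spleen replicate 3, and fewer in spleen replicates 1 and 2. The genes differ in exon bases (6569 for Itgal, and 5024 for Itgam with 3450 shared with Gm49368). The side of 0 therefore does not show which chain had the higher level, and only differences between libraries are compared. In exact two-sided permutation tests the mean difference from the spleen was 0.68 at 24 hours (p = 0.2) and 0.57 at 72 hours (p = 0.214), both with adjusted p = 0.321 over 3 comparisons. The smallest p these permutation designs allow is 0.0286 and 0.0179. Between the liver groups the difference was -0.11 (exact permutation p = 0.603).

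**Figure D2:**
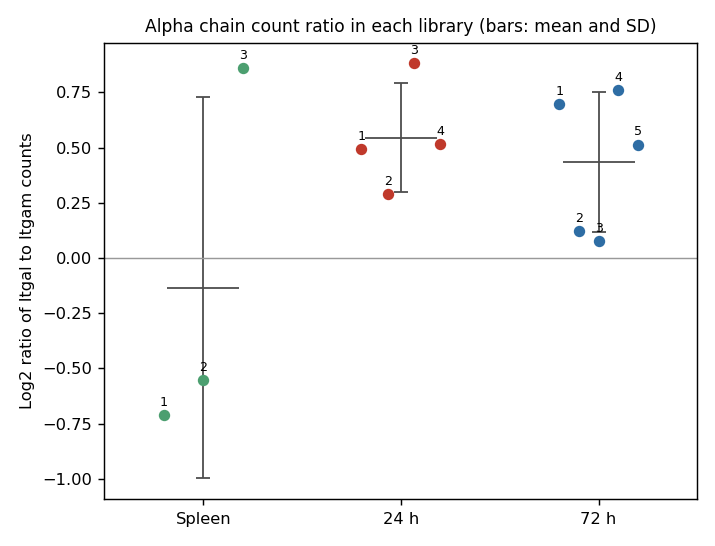
Log2 ratio of Itgal to Itgam counts (0.5 added to both) in each library of the 3 groups; points are libraries with their replicate number, and bars give the mean and SD. Spleen replicates 1 and 2 lie below 0 at -0.71 and -0.55, and every other library lies above 0. The line at 0 marks equal counts, with no allowance for exon length.

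Itgax, the alpha chain CD11c that dendritic cells carry at high levels and neutrophils at low levels, had 22.2, 17.0 and 54.9 CPM in the spleen, from 48, 47 and 171 counts. At 24 hours it had 3.78, 13.2, 14.1 and 17.5 CPM, from 6, 22, 20 and 24 counts. At 72 hours it had 53.1, 47.6, 66.8, 46.5 and 23.3 CPM, from 36 to 216 counts. All 72-hour libraries were above all 24-hour libraries, and the spleen range overlapped both. Itgax rose by 1.98 ± 0.42 on the log2 scale from 24 to 72 hours (adjusted p = 0.00958). It held when any 1 library was left out (1.68 to 2.20, adjusted p up to 0.0458), and missed the threshold without 72-hour replicates 2 and 3 together (1.76, adjusted p = 0.0569) and with replicates 4 and 5 alone (1.53, adjusted p = 0.149). It also missed the threshold without 24-hour replicates 1 and 2 (1.58, adjusted p = 0.145), and was called without 24-hour replicates 3 and 4 (2.45, adjusted p = 0.0211).

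Against the spleen, Itgax was at -1.38 ± 0.45 at 24 hours (adjusted p = 0.0540) and 0.60 ± 0.41 at 72 hours (adjusted p = 0.522). The 24-hour value rested on spleen replicate 3, without which it was -0.70 (adjusted p = 0.341). It passed with DESeq2 (-1.36, adjusted p = 0.0414) and with no filter on low counts (-1.40, adjusted p = 0.00407). Without spleen replicate 2 it was -1.68 (adjusted p = 0.0401), and without 72-hour replicates 4 and 5 it was -1.36 (adjusted p = 0.0364). The ratio of Itgax to Itgam was not tested because Itgax had fewer than 10 counts in 24-hour replicate 1; on the log2 scale it was -2.74, -3.12 and -0.69 in the spleen, -4.70 to -2.35 at 24 hours and -1.89 to -0.74 at 72 hours.

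Markers of dendritic cells were counted beside Itgax. The 10 listed markers, none with an opposite-strand overlap, summed to 46.3, 54.6 and 144 CPM in the spleen, 22.1 to 57.6 at 24 hours and 55.1 to 101 at 72 hours, so the liver groups overlapped. Clec9a had the most counts of them in every library, with 76, 116 and 302 counts in the spleen, 17, 29, 47 and 67 at 24 hours, and 107, 136, 161, 112 and 64 at 72 hours. Its log2 fold change between the liver groups was 0.998 (adjusted p = 0.13), which was not called. Ccr7 had no count in any library, Flt3 none at 24 hours and Siglech none in either liver group, while Zbtb46 had 4 to 18 counts in the spleen and 0 to 3 in the liver. Of the 7 markers tested, 0 were called between the liver groups. Cd74 was called higher at 72 hours than in the spleen (3.11, adjusted p = 0.0212), with 50, 73 and 81 counts in 72-hour replicates 1 to 3 and 3 in replicates 4 and 5. Their part in the Itgax result was not tested.

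Over the 12 libraries, the genes whose log2 CPM was most like that of Itgax were Rbm25 (Pearson r 0.946), Thbd (0.939) and Ccdc142os (0.930). For Icam1 they were Efhd2 (0.966), Gm28913 (0.960) and Marcksl1 (0.955). These are descriptions over libraries that share groups and scaling. Rbm25, Ccdc142os and Gm28913 have exon bases opposite another gene.

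Itga4, the alpha chain that pairs with Itgb1 to form VLA-4, the receptor for Vcam1 and fibronectin, had 46.8, 51.4 and 126 CPM in the spleen. It had 53.6, 43.8, 29.7 and 51.7 CPM at 24 hours. It had 68.8, 74.5, 42.3, 70.8 and 70.6 CPM at 72 hours. Spleen replicate 3 was the highest library, and the groups overlapped in each comparison. Log2 fold changes were -0.75 ± 0.33 (adjusted p = 0.155), -0.20 ± 0.31 (adjusted p = 0.841) and 0.55 ± 0.30 (adjusted p = 0.304) in the 3 comparisons. Without spleen replicate 3 they were -0.14 at 24 hours and 0.41, with the sign turned, at 72 hours against the spleen.

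Cerkl, whose exons lie opposite the end of Itga4, had 4000, 5349 and 10781 counts in the spleen, 2594 to 4168 at 24 hours and 2840 to 6130 at 72 hours. That is 27.4 to 97.7 times the count of Itga4 in the same library, and spleen replicate 3 was highest for both genes. Cerkl was not called, with log2 fold changes of -0.027 and -0.31 against the spleen. How reads were divided between the pair was not tested.

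Selplg had 203, 188 and 132 CPM in the spleen. At 24 hours it had 256, 261, 164 and 189 CPM, and at 72 hours 223, 225, 258, 162 and 198 CPM. The ranges overlapped, and spleen replicate 3 was the lowest library. Log2 fold changes were 0.32 ± 0.24 (95% confidence interval -0.19 to 0.82, adjusted p = 0.435) and 0.29 ± 0.23 (-0.19 to 0.77, adjusted p = 0.608) against the spleen.

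Cd44 had 165, 182 and 217 CPM in the spleen. At 24 hours it had 279, 230, 137 and 195 CPM, and at 72 hours 195, 217, 156, 250 and 276 CPM. Libraries of the same liver group differed more than the group means did. Log2 fold changes were 0.16 ± 0.26 (95% confidence interval -0.37 to 0.69, adjusted p = 0.742) and 0.22 ± 0.24 (-0.29 to 0.72, adjusted p = 0.754) against the spleen. Between the liver groups Selplg was at -0.027 and Cd44 at 0.057, and the sign of Cd44 turned to -0.012 under upper-quartile scaling.

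Pecam1 was near the detection limit, with 7, 6 and 3 counts in the spleen, 0, 0, 1 and 1 at 24 hours, and 0, 0, 4, 2 and 4 at 72 hours. All 24-hour libraries were at or under the floor of 3 counts, and no fold is given. The adjusted p was 0.238 at 24 hours and 0.71 at 72 hours against the spleen. Every 24-hour library lay below every spleen library in CPM (at most 0.729 against at least 0.963), and the difference was not called. So few counts do not show whether Pecam1 changed.

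**Figure D3:**
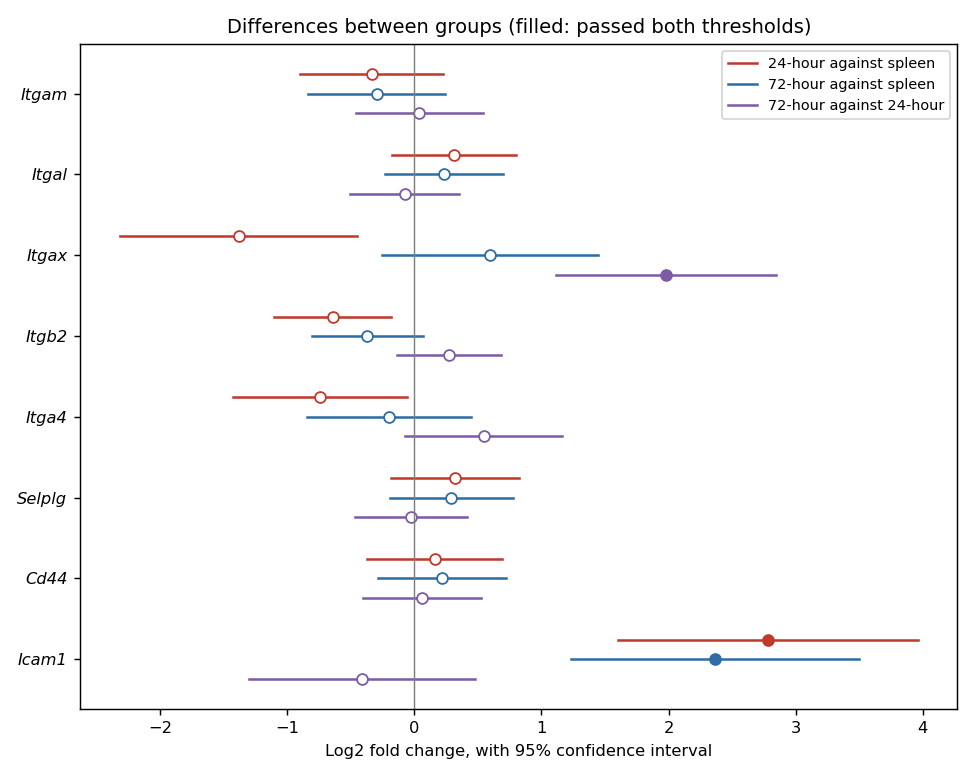
Log2 fold change (x axis) with its 95% confidence interval for 8 genes in the 3 comparisons, Pecam1 being left out for its low counts; filled points passed both thresholds. The filled points are Icam1 against the spleen at 24 hours (2.78) and 72 hours (2.37) and Itgax at 72 against 24 hours (1.98).

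The other genes of recruitment and ageing were taken as 7 lists of 117 genes in the table, of which 86 passed the filter. Of these 86, 5 were called higher and 4 lower at 24 hours, 4 higher and 3 lower at 72 hours, and 3 higher and 2 lower at 72 against 24 hours. Those counts are 5.81% and 4.65%, 4.65% and 3.49%, and 3.49% and 2.33% of the 86, where 5.35% and 4.4%, 2.63% and 2.71%, and 1.65% and 2.84% of all genes were called. Their median log2 fold changes were -0.17, -0.0074 and 0.17. Of these 21 calls, 10 held when any 1 of the 12 libraries was left out and 11 did not, and each of the 11 is given with its largest adjusted p.

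Of 11 other integrin genes tested, Itgb1 was called. This beta chain of VLA-4 had 8.38 CPM on average in the spleen, 37.1 at 24 hours and 39.1 at 72 hours. It rose by 2.16 ± 0.42 at 24 hours (adjusted p = 0.00211) and 2.25 ± 0.41 at 72 hours (adjusted p = 0.00125). Its counts were 25, 26 and 13 in the spleen, 42 to 66 at 24 hours, and 78, 151, 186, 30 and 35 at 72 hours, so no liver library overlapped the spleen in CPM, and replicates 4 and 5 were again the lowest 72-hour libraries. In the 24-hour neutrophils the beta chain of VLA-4 was thus called higher, while its alpha chain Itga4 was not called. The changes of the pair were not tested against each other. Without 72-hour replicates 1, 2 and 3 the 72-hour value was 1.39 and not called (adjusted p = 0.159).

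Of 14 selectins and makers of selectin ligands, 1 was called higher and 1 lower at 24 hours, 1 higher and 0 lower at 72 hours, and 1 higher and 0 lower between the liver groups. St3gal6, a sialyltransferase that helps build selectin ligands, rose by 2.05 at 24 hours (adjusted p = 0.00670) and 2.24 at 72 hours (adjusted p = 0.00314), with 1603 of its exon bases opposite another gene. It had 10.6, 8.32 and 19.9 CPM in the spleen, 48.1 to 63.7 at 24 hours, and 80.1, 88.7, 91.2, 27.8 and 18.8 at 72 hours, where replicate 5 lay below spleen replicate 3. Without 72-hour replicates 1, 2 and 3 the 72-hour value was 0.83 (adjusted p = 0.511). Fut4, a fucosyltransferase of the same pathway, had 12, 8 and 27 counts in the spleen, 0, 1, 1 and 0 at 24 hours and 5 to 12 at 72 hours. It was called lower at 24 hours (adjusted p = 0.00606) and higher at 72 than at 24 hours (adjusted p = 0.0317), and no fold is given because every 24-hour library was under the floor. The call between the liver groups was lost in 5 of 12 fits with 1 library left out, with adjusted p up to 0.0928 without 24-hour replicate 1.

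Of 9 immunoglobulin-type ligands and junction genes tested, 2 were called lower at 24 hours and 1 at 72 hours. Ceacam1, an inhibitory adhesion receptor, had 53.7, 44.9 and 15.1 CPM in the spleen, 4.24 to 12.6 at 24 hours and 9.58 to 20.01 at 72 hours. It fell by 2.10 at 24 hours (adjusted p = 0.00361) and by 1.39 at 72 hours (adjusted p = 0.0375). At 72 hours it did not pass in 5 of 12 fits that left out 1 library, and the value was -1.06 without spleen replicate 1 (adjusted p = 0.297). Jam3, a junctional adhesion molecule, fell by 1.86 at 24 hours (adjusted p = 0.0497), with 1159 exon bases opposite another gene and 1 to 41 counts, a call lost in 10 of 12 such fits (adjusted p = 0.127 without spleen replicate 1).

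Of 30 genes of integrin activation, Flna, which binds integrin tails in competition with talin, fell by 1.5 at 24 hours (adjusted p = 0.00411) and by 1.24 at 72 hours (adjusted p = 0.0137). The first was -0.93 without 24-hour replicates 3 and 4 (adjusted p = 0.0545), and the second was lost without spleen replicate 1 (-1.17, adjusted p = 0.0784) and without spleen replicate 2 (-1.12, adjusted p = 0.0985). Rap1b, a small GTPase that switches integrins on, rose by 0.88 at 24 hours (adjusted p = 0.0153), which was lost without spleen replicate 1 (0.84, adjusted p = 0.0806) and without spleen replicate 2 (0.90, adjusted p = 0.0617). Fyb, an adaptor in that pathway with 319 opposite-strand bases, rose by 0.74 from 24 to 72 hours (adjusted p = 0.0483), a call lost in 9 of 12 fits with 1 library left out (adjusted p = 0.140 without 24-hour replicate 2). The other 27 were not called in any comparison.

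Shedding of adhesion molecules such as Cd44 is the work of metalloproteases. Adam17, a membrane-bound sheddase with 311 exon bases opposite another gene, had 49.7 ± 9.02 CPM in the spleen, 57.4 ± 7.82 at 24 hours and 48.3 ± 11.7 at 72 hours (SD), with log2 fold changes of 0.21 ± 0.27 (adjusted p = 0.681) and -0.043 ± 0.26 (adjusted p = 0.969). Of the 10 sheddase genes tested, Mmp8, neutrophil collagenase, fell by 2.23 at 72 hours against the spleen (adjusted p = 0.00614), where spleen replicate 3 had 84.7 CPM and the other spleen libraries 268 and 262. Without 72-hour replicates 2 and 3 it was -1.89 (adjusted p = 0.0802). Mmp25, a membrane-bound metalloprotease of neutrophils, fell by 1.23 from 24 to 72 hours (adjusted p = 0.0346), which was lost in 5 of 12 fits with 1 library left out and was -0.91 without 24-hour replicate 2 (adjusted p = 0.154). The other 8 were not called.

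Ageing neutrophils are known to gain Cxcr4, the receptor for the marrow chemokine Cxcl12, and to lose Cxcr2. Cxcr4 had 57.9, 50.6 and 54.2 CPM in the spleen, 18.9, 19.8, 66.4 and 41.5 at 24 hours, and 116, 106, 193, 84.0 and 126 at 72 hours. Every 72-hour library was above every other library. The log2 fold change was 1.21 ± 0.35 at 72 hours against the spleen (adjusted p = 0.0460), 1.78 ± 0.33 against 24 hours (adjusted p = 0.00438) and -0.57 ± 0.36 at 24 hours (adjusted p = 0.325). The call against the spleen was lost in 8 of 12 fits with 1 library left out (adjusted p = 0.197 without spleen replicate 2), and the call against 24 hours without 24-hour replicates 1 and 2 (1.20, adjusted p = 0.124). Cxcr2 had 327 ± 41.6, 318 ± 151 and 374 ± 81.1 CPM in the 3 groups (SD), with log2 fold changes of -0.040 ± 0.29 (adjusted p = 0.954) and 0.19 ± 0.28 (adjusted p = 0.826).

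Of the 12 genes of that list tested, the clock gene Per1 rose by 2.43 at 24 hours (adjusted p = 0.0424) and 4.23 at 72 hours (adjusted p = 7.8e-04). Its counts were 7, 7 and 5 in the spleen, 11, 19, 37 and 12 at 24 hours, and 30, 174, 377, 17 and 33 at 72 hours, where the CPM was 16.2, 60.04, 117, 11.8 and 21.4. The 72-hour value was 3.50 without 72-hour replicate 3 and 2.74 without replicates 2 and 3, called in both cases. At 24 hours it did not pass in 6 of 12 fits that left out 1 library, and the value was 1.88 without 24-hour replicate 3 (adjusted p = 0.142). The clock output gene Dbp fell by 1.10 from 24 to 72 hours (adjusted p = 0.0399), a call lost in 8 of 12 such fits (adjusted p = 0.0959 without 24-hour replicate 1). Of the 3 hyaluronan and matrix genes tested, Has3, a hyaluronan synthase, rose by 0.77 at 24 hours (adjusted p = 0.0262), a call lost in 5 of 12 such fits (adjusted p = 0.0769 without spleen replicate 3). Dbp and Has3 have 539 and 704 exon bases opposite another gene.

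**Figure D4:**
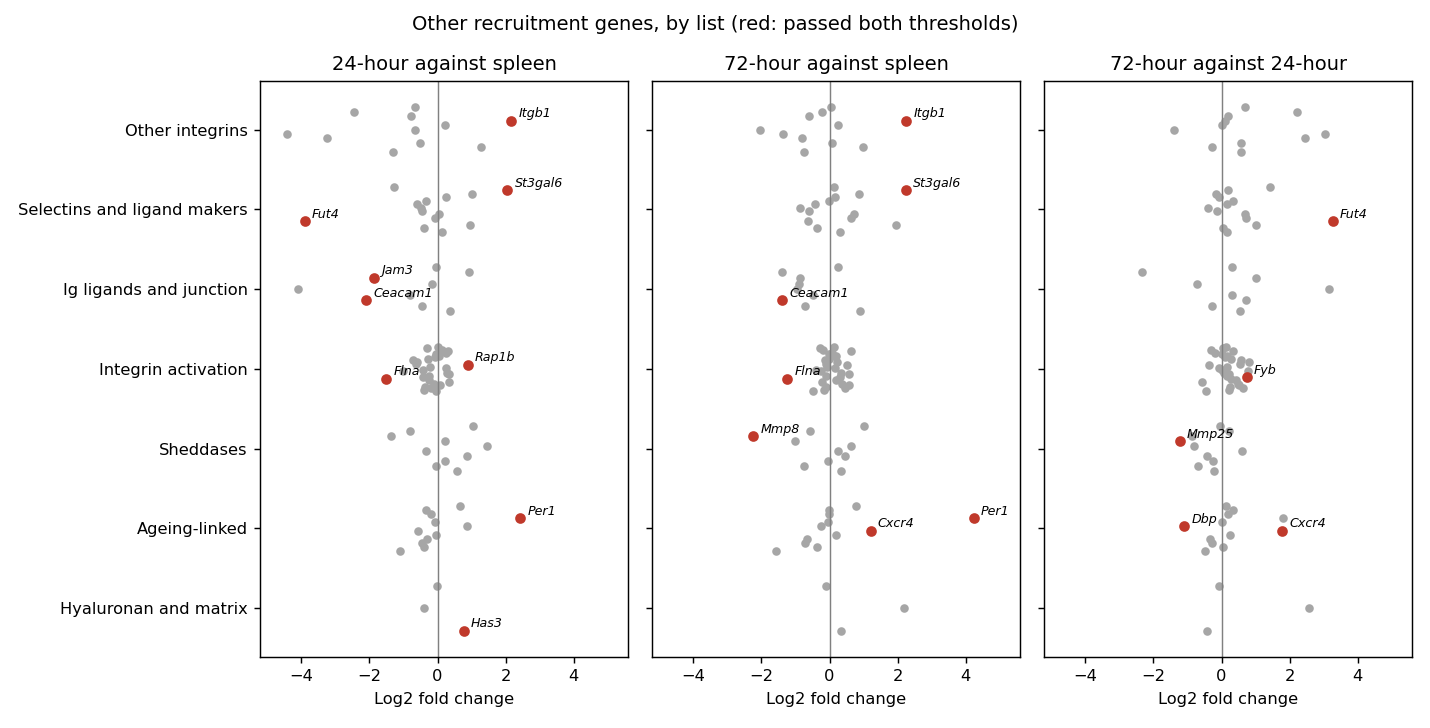
Log2 fold change (x axis) of the 86 other recruitment genes tested, by list, in the 3 comparisons; red points with names passed both thresholds and grey points did not. Itgb1 lies at 2.16 and 2.25 against the spleen, Cxcr4 at 1.21 and 1.78 in the 72-hour comparisons, and the value of Fut4 depends on libraries with 0 or 1 count.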

How the data were processed

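Neutrophil RNA of 12 libraries (3 spleen, 4 24-hour liver, 5 72-hour liver) was sequenced with a stranded mRNA kit. The authors aligned reads with STAR 2.7.9a to GRCm38, per the submitters' processing notes, used HTSeq-count for gene counts and deposited these counts, unscaled, in 1 table; the strand option is not given in the sources used here. The 5 summary rows, holding 96.8% to 97.3% of uniquely aligned reads as on no gene, entered neither library sizes nor tests. All columns were mapped by name.

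Genes with more than 1 CPM in at least 3 libraries were scaled by TMM. All 12 libraries entered 1 quasi-likelihood fit of edgeR 4.0.16 (R 4.3.3), and p-values were adjusted by Benjamini-Hochberg over 12488 genes. Genes were called at adjusted p below 0.05 and absolute log2 fold change of at least 0.5. Normalized CPM is the count over the TMM-scaled library size. The fits were tested on simulated data first. Alternatives were other scalings, DESeq2 1.42.0, voom of limma 3.58.1, other filters, 2-group fits, a replicate block, genes with no opposite-strand overlap and left-out libraries. Gene symbols and exon overlaps came from the GRCm38 annotation, and 48349 identifiers matched. No 2 libraries of a group agreed within sampling noise, but spleen replicates 1 and 2 came closest. Their chi-square per degree of freedom, which sets the difference of 2 libraries against sampling noise, was 2.69. It was 52.9 and 60.7 for each of them with spleen replicate 3, and 7.38 for the next closest pair, 72-hour replicates 4 and 5. Whether spleen replicates 1 and 2 are independent samples is not given in the sources. The sources do not tie each library to 1 animal, so p-values measure the spread between these samples.

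The members and lists were chosen with earlier results of these data known. All 9 members are named, as are list genes called in any comparison, Adam17, Cxcr2 and Cxcr4, genes sharing exons with a member, and the 3 genes most like each called member. A further gene that the rule names is not reported here. Marker genes and Ly6g were named after their values were seen.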

Additional observations from a re-analysis of the deposited data

Results flagged for a closer look

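Itga4 in 72-hour replicate 3 had 42.3 normalized CPM, below the other 72-hour libraries at 68.8 to 74.5 CPM by a gap of 0.821 of the whole range, which is past Dixon's limit for 5 samples. This was 1 of 18 sets of libraries examined (9 genes in both liver groups), and chance flags about 1 in 20 such sets. Without that library the log2 fold change from 24 to 72 hours was 0.67.

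Itgax was flagged because its log2 fold change against the spleen was higher by 1.98 at 72 than at 24 hours (edgeR adjusted p = 0.00958). The spleen cancels in that difference, so it is the comparison of the liver groups given above and not a further result. Neither change against the spleen was called (adjusted p = 0.0540 and 0.522). The call was lost without 24-hour replicates 1 and 2 and without 72-hour replicates 2 and 3, as given above.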

How the results depend on the processing

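Icam1 at 24 hours was called under every setting in which it was tested, and no member was called in 24-hour genes without opposite-strand overlap (0 of 7), where Icam1 is not tested by construction. The members called at 24 hours became 3 with DESeq2 (Itgax, Itgb2, Icam1) and 2 with no filter, with filterByExpr and without 72-hour replicates 4 and 5. With 1 library left out they numbered 1 to 2 at 24 hours, 0 to 1 at 72 hours, and 1 between the liver groups. At 72 hours they became 0 with limma-voom, without opposite-strand overlap, without 72-hour replicates 2 and 3, and without replicates 1, 2 and 3 (chosen after seeing the data). Between the liver groups they became 0 without replicates 2 and 3 and without 24-hour replicates 1 and 2, and without 72-hour replicates 1, 2 and 3 the 1 called was Icam1, not Itgax.

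The number of all genes called (1218, 666 and 561) was 552, 360 and 143 without opposite-strand overlap, with fewer genes tested. It was 287 and 197 in the 72-hour comparisons without replicates 2 and 3, 1173 and 848 without replicates 4 and 5, 169 and 246 without replicates 1, 2 and 3, and 986 between the liver groups with DESeq2. Further settings were added after the split of the 24-hour libraries was seen: without 24-hour replicates 1 and 2 there were 7 genes called between the liver groups, and without 24-hour replicates 3 and 4 there were 806 called at 24 hours. Leaving out 1 library gave 575 (without spleen replicate 1) to 1320 genes at 24 hours, 314 (without spleen replicate 2) to 835 at 72 hours, and 182 (without 24-hour replicate 1) to 796 between the liver groups. Upper-quartile scaling moved the median of all genes between the liver groups from 0.18 to 0.10 and the calls from 206 higher and 355 lower to 157 and 457.

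Signs turned only for differences that were not called. Between the liver groups Itgam went to -0.046 under upper-quartile scaling, -0.12 without opposite-strand overlap, -0.23 without replicates 2 and 3 and -0.31 without replicates 1, 2 and 3. Without 24-hour replicates 1 and 2, Itgal went to 0.0017 and Selplg to 0.26, and Cd44 to -0.17 at 24 hours; without 24-hour replicates 3 and 4, Itgam went to -0.21 and Cd44 to -0.25. Cd44 also went to -0.012, -0.095 and, without replicates 4 and 5, -0.16, where Selplg went to 0.099 and Icam1 to 0.079. With 1 library left out the ranges were -0.011 to 0.32 for Cd44 at 24 hours, -0.45 to 0.41 for Itga4 at 72 hours, and between the liver groups -0.10 to 0.22 for Cd44, -0.091 to 0.19 for Itgam, -0.14 to 0.071 for Selplg and -0.20 to 0.00054 for the ratio of Itgal to Itgam. The causes were not tested.

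Libraries with the same replicate number deviated together no more than others (r of -0.116 to 0.130, against -0.153 to 0.161 for other numbers), which cannot exclude a pairing. Spleen replicates 1 and 2 deviated with 24-hour replicates 1 and 2 (r of 0.094 to 0.115) and against 24-hour replicates 3 and 4 (-0.111 to -0.083). Spleen replicate 3 went the other way, though deviations balance within a group, so these values are not independent. A batch shared across groups was not tested. A replicate block gave 2 members called at 24 hours (Icam1 and Itgax), turned Cd44 to -0.034 and Selplg to 0.014 between the liver groups, and moved no count of all genes by over 1.5 times. Of the 21 calls of list genes, 5 held with any 1 library and with any set of libraries left out, an alternative also chosen after seeing the data. Low counts limit Pecam1 most, and Icam1 in the spleen.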
